A study of Mus musculus with 4 samples.

Results

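Type 1 conventional dendritic cells (cDC1) were examined among leukocytes sorted from mouse pancreatic tumours. A barcode was taken as a cDC1 by its UMIs (unique molecular identifiers, counted transcripts). It held at least 2 UMIs of Xcr1 and Clec9a together, at least 3 of H2-Ab1, at least 1 of Irf8 and at most 2 of Fscn1 and Ccr7 together. It held none of Cd3e and Cd79a, at most 1 of C1qa, C1qb and C1qc together and at most 1 of Mki67 and Top2a together. Of 14855 barcodes kept after filtering, 128 met these criteria, and they were 128 of 684 cells in 5 dendritic cell gates. The members were thus chosen by the measured UMIs of these genes, and their levels describe the gate and are not a result.

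Both groups were C57BL/6 mice with orthotopic tumours of the B6KPC3 line, 7 days old when dosing began, whose CD45-enriched cells were sorted and run on a droplet 3′ platform. AT38 mice received AT38, a compound known here by its code name, at 30 mg/kg per day in 1% carboxymethyl cellulose in water, split over a pair of intraperitoneal injections each day for 7 days. Vehicle mice received the carboxymethyl cellulose solution alone on the same schedule. Each group had 2 libraries. Each library pooled 4 mice and counts as 1 replicate, so the spread between single mice was not measured; the ages of the mice are not given in the labels.

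cDC1 depend on the transcription factors IRF8 and BATF3 and are known for taking up dead tumour cells and presenting their antigens on MHC class I to CD8 T cells, which is called cross-presentation. Their receptor XCR1 binds the chemokine XCL1 made by NK and T cells, and CLEC9A binds actin exposed on dead cells. Type 2 cells (cDC2) depend more on IRF4 and present mainly to CD4 T cells, and mature dendritic cells (Fscn1- and Ccr7-high) are the activated cells that leave for lymph nodes.

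The 4 libraries held 24294215 to 34386076 UMIs in all and kept 3003 to 4992 barcodes. cDC1 numbered 44 and 40 in the AT38 libraries, against 21 and 23 in the vehicle libraries, and their summed UMIs were 647651 and 625382, against 367066 and 340427. The median depth per cDC1 was 15119.5 and 14582.5 UMIs in AT38 libraries and 14551 and 14517 UMIs in vehicle libraries. Across libraries 24 barcode sequences occurred more than once, 0 of them in a cDC1. In the vehicle libraries 3 members stood apart: 1 cell of vehicle 1 with 367 UMIs of the neutrophil genes S100a8 and S100a9, 1 cell of vehicle 2 with 800, and 1 cell of vehicle 1 with 80970 UMIs in all. The deep cell supplied 22.1% of the cDC1 UMIs of vehicle 1 and most UMIs of several epithelial genes, such as 129 of 132 UMIs of Krt18, a keratin. It also carried 14 UMIs of Xcr1 and 8 of Clec9a, so both kinds of RNA lay under one barcode. Results on genes are given with all 128 members and, where it matters, without these 3, a set chosen after they had been seen. The cut-offs were over 100 UMIs of S100a8 and S100a9, or over 50000 UMIs in all with at least 3 of H2-Ab1. In tests of cDC1 against other cell types run without these 3, the same cut-offs were applied to those types too. Levels set side by side between cell types use all cells of each gate, with no such cut-off.

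The gated cells carried the other genes by which cDC1 are known to differing extents. Of the 128 members, 101 had both Xcr1 and Clec9a, 11 only Xcr1 and 16 only Clec9a. Naaa, an acid amidase of lysosomes and a standard cDC1 marker, had a UMI in 123 of them and Wdfy4, required for cross-presentation of cell-bound antigen, in 125. Neither is particular to cDC1 by this measure, since they were found in 76.8 and 73.9% of cDC2, and 3 members had neither. Of other cDC1 markers, Itgae was found in 109 members, Batf3 in 107, Tlr3 in 92, Gcsam in 85, Cadm1 in 63, Snx22 in 52 and Clnk in 20. At the edge of the gate, 14 members had exactly 2 UMIs of Xcr1 and Clec9a, and Naaa was found in 85.7% and the cDC2 marker Cd209a in 28.6% of them. The 26 cells with 1 such UMI, just outside, had Naaa in 73.1% and Cadm1 in 15.4%. The 279 cells with 0 that met the other criteria had Naaa in 73.8% and Cadm1 in 1.43%. Among the 105 members with 4 or more, Naaa was found in 99.0% and Cd209a in 0.952%.

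The genes that set cDC1 furthest apart from both cDC2 and mature dendritic cells are given here as levels in CPM (UMIs of a gene scaled to a common total of summed UMIs per library and cell type) with no test, since the gate chose on the same contrast. Of 2786 genes with a mean of at least 50 CPM in cDC1, 373 were higher in the lowest cDC1 library than in the highest library of either other type, and 35 were at least 4 times higher than the higher of their means. Rab7b, a small GTPase of late endosomes, averaged 321 CPM in cDC1, against 5.94 CPM in cDC2 and 10.7 CPM in mature cells. Tlr3, the endosomal receptor for double-stranded RNA, averaged 149 CPM in cDC1, against 4.45 CPM in cDC2 and 2.52 CPM in mature cells. In rank order, by the ratio of cDC1 to the higher of the other means with 5 CPM added to each, Rab7b and Tlr3 came first, followed by Gcsam, Txndc16 and Ppt1. Gcsam, a signalling adaptor named for germinal centre B cells, averaged 109 CPM in cDC1, against 0.503 CPM in cDC2 and 2.81 CPM in mature cells. Txndc16, a thioredoxin domain protein, averaged 219.8 CPM in cDC1, against 10.9 CPM in cDC2 and 6.11 CPM in mature cells, and the lysosomal thioesterase gene Ppt1 824 CPM, against 65.8 and 45.3 CPM. In each of these 5 genes every cDC1 library lay above every library of the other types.

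Surface and pathogen-sensing genes, chosen for description after their values were seen, included some that set cDC1 apart and some that did not. Cadm1, a cell adhesion molecule, averaged 116 CPM in cDC1, against 3.31 CPM in cDC2 and 8.09 CPM in mature cells. Btla, an inhibitory receptor of the CD28 family, averaged 231 CPM, against 39.7 and 44.3 CPM. Tlr11, which in mice senses profilin of protozoa, averaged 38.0 CPM in cDC1, 5.24 CPM in cDC2 and 3.34 CPM in mature cells. The chemokine receptor gene Cxcr3 ranged from 20.6 to 48.0 CPM over the cDC1 libraries, against 0 to 4.49 CPM in cDC2 and 0 to 3.01 CPM in mature cells. Flt3, the receptor for the growth factor that sustains dendritic cells, averaged 302 CPM in cDC1, 62.3 CPM in cDC2 and 182 CPM in mature cells. Havcr2, the inhibitory receptor TIM-3, averaged 178 CPM in cDC1, against 182 CPM in cDC2 and 40.1 CPM in mature cells. Kit, the receptor for stem cell factor, averaged 100.1 CPM in cDC1, against 113 CPM in cDC2 and 78.7 CPM in mature cells. Ly75, the uptake receptor DEC-205, averaged 39.9 CPM in cDC1, against 29.1 CPM in cDC2 and 174 CPM in mature cells, where it was highest.

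Several genes that were high in cDC2 were low in cDC1, and they were not particular to cDC2. S100a4, a calcium-binding protein, averaged 34.7 CPM in cDC1, against 1141 CPM in cDC2 and 1429 CPM in mature cells, where it was highest. Sirpa, the receptor for CD47, averaged 11.3 CPM in cDC1, against 234 CPM in cDC2 and 114 CPM in mature cells. Irf4 had 0 CPM in both vehicle libraries of cDC1 and averaged 10.3 CPM over the 4 libraries, against 158 CPM in cDC2 and 79.9 CPM in mature cells. Not every textbook marker separated the types: Itgae, which encodes the integrin CD103, averaged 395 CPM in cDC1 and 325 CPM in cDC2, and the ranges of their libraries overlapped. Batf3 averaged 210.3 CPM in cDC1, 103 CPM in cDC2 and 236 CPM in mature cells. Cd8a, which marks resident cDC1 of mouse lymphoid organs, had 17 UMIs in 10 members, and the 32 cycling cDC1 kept Naaa, at 1769 CPM, against 1717 CPM in the non-cycling members.

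**Figure D1:**
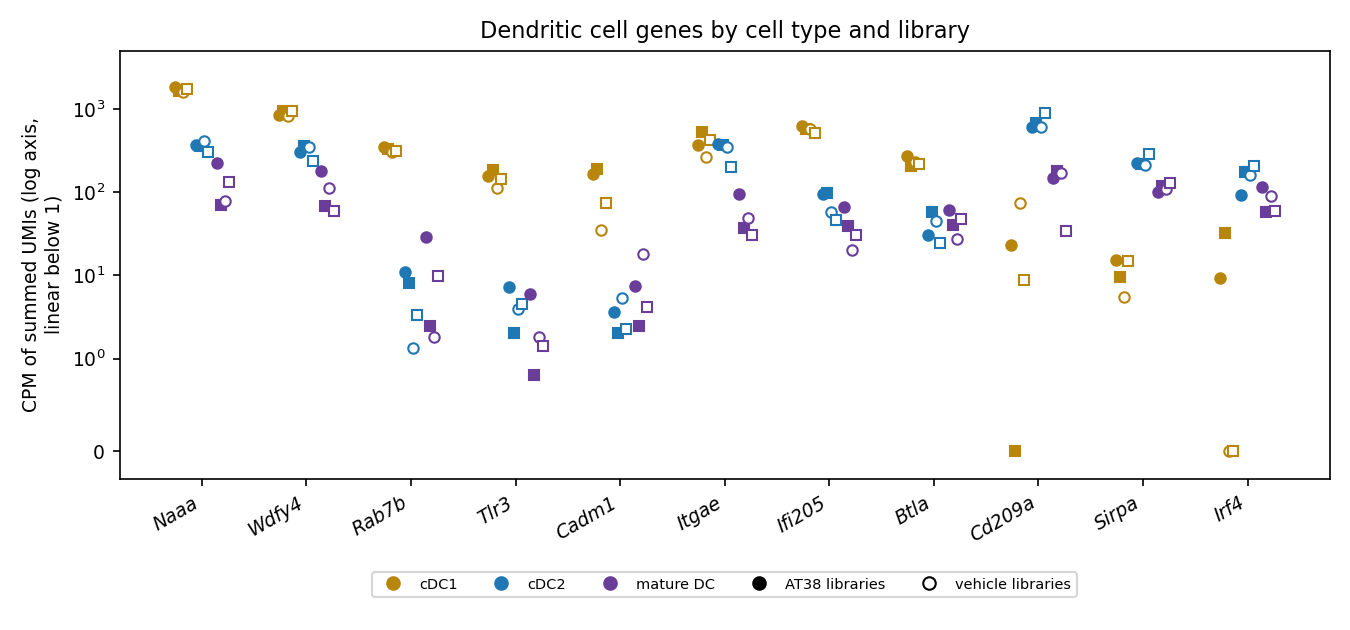
Level of 11 genes in CPM of summed UMIs (log axis, linear below 1) in cDC1, cDC2 and mature dendritic cells, with 1 point per library, filled for AT38 and open for vehicle, with circles for library 1 and squares for library 2. Rab7b, Tlr3 and Ifi205 lie highest in cDC1 in all 4 libraries and Sirpa and Irf4 lie lowest there, while Itgae overlaps with cDC2.

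A pair of interferon-inducible genes of the p200 family, whose proteins include sensors of DNA, were among the leading cDC1 genes, and the stretch before their starts is shown because both hold the core letters of an interferon response element. Ifi205 averaged 572 CPM in cDC1, against 73.8 CPM in cDC2 and 39.0 CPM in mature cells, and Ifi211 132 CPM, against 13.3 and 27.3 CPM. The sequences are the 250 bases before the RefSeq start (GRCm38.p6, minus strand), at chr1:174031756-174032005 for Ifi205 and chr1:173913047-173913296 for Ifi211, with capitals marking the motif.
Ifi205: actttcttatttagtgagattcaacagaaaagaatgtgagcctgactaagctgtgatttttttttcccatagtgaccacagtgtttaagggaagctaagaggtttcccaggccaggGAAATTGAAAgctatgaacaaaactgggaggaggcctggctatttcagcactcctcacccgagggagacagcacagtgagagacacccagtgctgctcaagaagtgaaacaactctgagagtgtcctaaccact
Ifi211: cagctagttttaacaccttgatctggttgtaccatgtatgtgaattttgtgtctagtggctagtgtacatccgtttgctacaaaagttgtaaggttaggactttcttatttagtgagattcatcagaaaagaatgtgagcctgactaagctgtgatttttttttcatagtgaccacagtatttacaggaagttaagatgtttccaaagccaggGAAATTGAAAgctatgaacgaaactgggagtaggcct
The search read GAAA, any 2 bases and GAAA again, on both strands. It found a match in 2 of the 23 leading genes that have a single window in the table, these same genes, and in 2.98% of all 32851 promoter windows. The dyad TTCNNNGAA of STAT factors matched in 0 of the 23 and 7.02% of all windows, and TGANTCA, bound by AP-1 factors, in 2 (Clec12a and Mctp1) and 6.75%. A match describes the letters only. The p200 genes are close paralogs, so reads may be split between them. The 2 windows shown share long stretches, the motif among them, so their matches are not independent. Between treatments Ifi205 had 625 and 580.4 CPM in AT38 libraries, against 567 and 514 CPM in vehicle libraries, and its log2 fold change was 0.19 ± 0.17 (adjusted p 0.911, edgeR quasi-likelihood test with Benjamini-Hochberg adjustment).

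cDC1 took a larger share of the kept barcodes in both AT38 libraries than in either vehicle library. The shares were 1.21 and 1.25% in AT38 libraries, against 0.699 and 0.461% in vehicle libraries, or 1.23 ± 0.0292% and 0.580 ± 0.169% (SD, n = 2 each), a ratio of 2.11. The groups did not overlap, and the exact two-sided permutation p of 0.333 was the smallest that 2 against 2 libraries allow. Single libraries carried counting error: the exact binomial 95% interval reached down to 0.877 and 0.892% in the AT38 libraries and up to 1.07 and 0.691% in the vehicle libraries. Among dendritic cells of the 5 gates, cDC1 were 25.1 and 21.7% in AT38 libraries, against 16.2 and 11.8% in vehicle libraries (exact permutation p 0.333). Adjusted over the 4 share and ratio tests on cDC1, these p-values were 0.667. The share of cDC1 was a share of sorted cells and gives no number of cells per tumour.

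Other cells of the same libraries differed too. T cells were 35.4 ± 2.24% of kept barcodes in AT38 libraries and 25.5 ± 0.650% in vehicle libraries, and neutrophils 15.2 ± 0.0205% and 22.0 ± 0.690% (SD, n = 2 each), with the groups apart in both (exact permutation p 0.333). cDC2 were 1.72 ± 0.359% in AT38 libraries and 2.05 ± 0.208% in vehicle libraries, with overlap (exact permutation p 0.667). With cells past the cut-offs left out, the 3 vehicle members that stood apart among them, the log2 ratio of cDC1 shares was 1.19, against 1.08 with them. Kept barcodes were then 3632 and 3199 in AT38 libraries, against 2977 and 4977 in vehicle libraries. These counts lost only the cells over 50000 UMIs with at least 3 of H2-Ab1. The cut-off on S100a8 and S100a9 was applied within the gates, apart from that of neutrophils, and not to the kept barcodes. After every barcode had been thinned to 2000 UMIs before gating, cDC1 were 0.670 and 0.864% in AT38 libraries, against 0.331 and 0.271% in vehicle libraries.

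**Figure D2:**
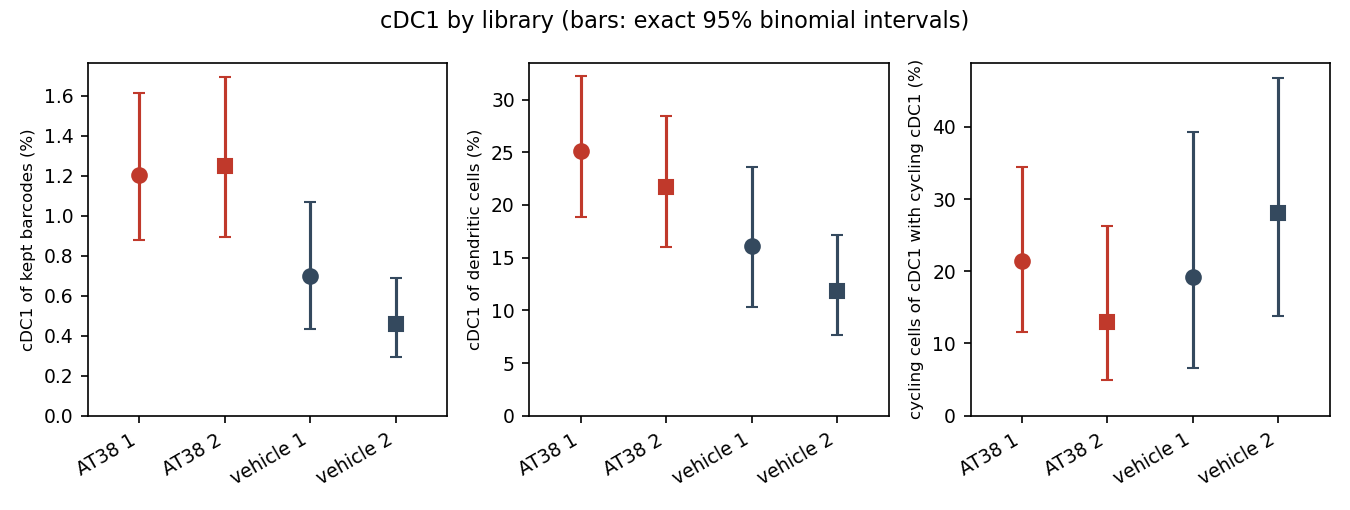
Share of cDC1 among kept barcodes, among dendritic cells, and of cycling cells among cDC1 with cycling cDC1, in percent per library, with exact 95% binomial intervals as bars. The AT38 libraries, at 1.21 and 1.25% of kept barcodes, lie above the vehicle libraries at 0.699 and 0.461%, while the cycling shares overlap.

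The groups overlapped in cycling and in the ratio to mature cells. Cells that met the gate but held 2 or more UMIs of Mki67 and Top2a, genes of dividing cells, were 21.4 and 13.0% of all cDC1 in AT38 libraries, against 19.2 and 28.1% in vehicle libraries (exact permutation p 0.667). The log2 ratio of mature dendritic cells to cDC1 was 0.06 and 1.10 in AT38 libraries, against 0.74 and 1.48 in vehicle libraries (exact permutation p 0.667), and without AT38 1 the difference of means was -0.00236. With 2 libraries a group, neither result shows that the shares were equal.

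For expression, UMIs were summed over the members of each library and AT38 was tested against vehicle with edgeR's quasi-likelihood test and Benjamini-Hochberg adjustment over 5406 genes. At an adjusted p of 0.05, 1 gene passed, which is 0.0185% of the genes tested. It was Retnlg, a secreted protein of neutrophils, with 0 UMIs in both AT38 libraries, against 161 and 67.6 CPM in the vehicle libraries (adjusted p 0.0490); a count of 0 allows up to 4.63 and 4.80 CPM in the AT38 sums. Its 82 UMIs lay in 5 cells, and no gene passed in edgeR without the 3 vehicle members (0 of 5298, with 318, or 6%, at an unadjusted p under 0.05). DESeq2 called 4 genes with all members: S100a8, S100a9 and Retnlg lower and Gm42418 higher. At an unadjusted p under 0.05, edgeR placed 335 genes (6.2%), 214 higher and 121 lower, or 3.96 and 2.24% of those tested. The number of calls turned on single libraries: it was 33 without AT38 1, 23 without AT38 2, 47 without vehicle 1 and 241 without vehicle 2, each with a lone library assumed to vary like the other group. These p-values measure the spread between pools of mice.

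Neutrophil RNA was higher in the vehicle sums. The 12 neutrophil markers together came to 171 and 349 CPM in AT38 libraries, against 1376 and 3011 CPM in vehicle libraries, and to 120 and 485 CPM in the vehicle libraries without the 3 members. Epithelial, stromal and red cell markers, 14 of 21 with any UMI, summed to 30.9 and 56.0 CPM in AT38 libraries, against 736 and 38.2 CPM in vehicle libraries, and to 14.6 CPM in vehicle 1 without them. Macrophage and monocyte markers summed to 423 and 652 CPM in AT38 libraries, against 2376 and 629 CPM in vehicle libraries, with 689 of 814 UMIs of Spp1, a secreted phosphoprotein, in the deep cell. Plasmacytoid dendritic cell markers summed to 378 and 293 CPM in AT38 libraries, against 313 and 1019 CPM in vehicle libraries, with the pDC lectin gene Siglech in 6 members. T and NK cell markers summed to 377 and 122 CPM in AT38 libraries, against 35.4 and 132 CPM in vehicle libraries, and B cell markers to 179 and 141 CPM, against 98.1 and 188 CPM. Col1a1, Col3a1, the haemoglobin genes Hba-a1 and Hbb-bs, the B cell gene Cd79b and the macrophage gene Chil3 were at 0 in every library. The part of these other RNAs in genes below was not tested beyond the values given without the 3 members.

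The higher genes with the smallest p included an adhesion molecule and several regulators, and with all members and the stated filter none of them passed the adjusted threshold. The first 3, Cadm1, AA467197 and Pianp, passed it in some alternatives, among them a minimum count of 30 (adjusted p 0.0467 for each in edgeR). They also passed with no filter and with a replicate block, but those settings called 111 and 74 genes in cDC1. Without the 3 vehicle members none of them passed (adjusted p 0.125 for each in edgeR), and none passed in DESeq2. Cadm1 (chr9:47530173-47857637, GRCm38), which binds CRTAM on activated T and NK cells, had 167 and 190.3 CPM in AT38 libraries, against 35.4 and 73.4 CPM in vehicle libraries. Both AT38 libraries lay above both vehicle libraries, and 63 of the 128 members held the transcript. The log2 fold change was 1.75 ± 0.29 in edgeR (adjusted p 0.0617) and 1.60 without the 3 members. Over all alternatives it ranged from 0.67, after thinning to 2000 UMIs before the gate, to 2.35, without vehicle 2. The largest adjusted p was 0.476 in edgeR, after thinning. Cells at the edge of the gate held less Cadm1, and members with 4 or more UMIs of Xcr1 and Clec9a were 36 of 44 and 38 of 40 in AT38 libraries, against 16 of 21 and 15 of 23 in vehicle libraries. Among these the log2 fold change of Cadm1 was 1.57 (adjusted p 0.125 in edgeR). Thinned to 2000 UMIs, Cadm1 was found in 18.2 and 37.5% of cDC1 in AT38 libraries, against 9.52 and 8.70% in vehicle libraries, and in at most 0.228% of B cells, a type that should lack it (median depth 2791 to 3732.5 UMIs). Unthinned, the shares of cDC1 were 47.7 and 70.0% in AT38 libraries, against 33.3 and 30.4% in vehicle libraries.

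AA467197 (chr2:122636986-122641191), the mouse counterpart of human C15orf48, encodes a small protein of the mitochondrial respiratory chain. It had 157 and 134 CPM in AT38 libraries, against 40.9 and 52.9 CPM in vehicle libraries, with the groups apart (log2 1.67 ± 0.27, adjusted p 0.0617 in edgeR). The transcript was found in 39 of the 128 members, and 1 AT38 1 cell held 47 of its UMIs, or 21.5% of those in all members. Pianp, a membrane protein that binds the inhibitory receptor PILRA, had 108 and 95.9 CPM in AT38 libraries, against 24.5 and 29.4 CPM in vehicle libraries (log2 1.95 ± 0.33, adjusted p 0.0637 in edgeR). Both AT38 libraries lay above both vehicle libraries in each gene, and without the 3 members the log2 fold changes were 1.48 and 1.96. Over all alternatives they ranged from 1.04, with a gate of at least 1 UMI of Xcr1 and Clec9a, to 2.25 for AA467197 and from 1.30 to 2.08 for Pianp, with adjusted p from 4.75e-06 to 0.956 and from 3.28e-05 to 0.366 (edgeR, with the 0.366 from DESeq2). Nr4a3, an orphan nuclear receptor induced by stimulation of dendritic cells, had 383 and 478 CPM in AT38 libraries, against 123 and 241 CPM in vehicle libraries (log2 1.28 ± 0.26, adjusted p 0.160 in edgeR). Etv3, an ETS family repressor, had 412 and 445 CPM in AT38 libraries, against 142 and 258 CPM in vehicle libraries, and its log2 fold change was 1.14 ± 0.24. Tiparp, an ADP-ribosyltransferase induced by the aryl hydrocarbon receptor, had 283 and 269 CPM in AT38 libraries, against 136 and 147 CPM in vehicle libraries, and Tagap, a GTPase-activating protein of leukocytes, had 119 and 128 CPM in AT38 libraries, against 40.9 and 55.8 CPM in vehicle libraries. All 4 kept the AT38 libraries above the vehicle libraries without the 3 members.

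Some of the differences rested on few cells. Dnase1l3, a secreted DNase of dendritic cells and macrophages, had 149.8 and 131 CPM in AT38 libraries, against 65.4 and 55.8 CPM in vehicle libraries (log2 1.24 ± 0.26), but only 21 members held it and 5 of them 69.8% of its UMIs. Serpinb6b, a protease inhibitor, had 156 and 106 CPM in AT38 libraries, against 40.9 and 61.7 CPM in vehicle libraries, with 64.0% of UMIs in 5 of 32 positive members. Both turned lower in AT38, at -1.86 and -1.46, when members were chosen on counts thinned to 2000 UMIs. Ifih1, the RNA sensor MDA5, had 34.0 and 43.2 CPM in AT38 libraries, against 8.17 and 5.87 CPM in vehicle libraries over 30 positive members (log2 2.43 ± 0.54, adjusted p 0.203 in edgeR).

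Some genes that were lower with AT38 held much of their vehicle level in the members that stood apart. Cd14, the co-receptor for lipopolysaccharide, had 27.8 and 24.0 CPM in AT38 libraries, against 109 and 82.2 CPM in vehicle libraries (log2 -1.85 ± 0.34, adjusted p 0.0908 in edgeR), but 21.8 and 81.4 CPM in the vehicle libraries without the 3 members, so that vehicle 1 lay below both AT38 libraries. Cebpb, a transcription factor abundant in neutrophils and macrophages, had 116 and 125 CPM in AT38 libraries, against 299.7 and 226 CPM in vehicle libraries, and 98.3 and 166 CPM in the vehicle libraries without them. The log2 fold change of Cebpb was -1.10 ± 0.22 with all members and -0.11 without the 3. By contrast Hspa1b, a heat shock protein of the HSP70 family, had 156 and 283 CPM in AT38 libraries, against 542 and 438 CPM in vehicle libraries (log2 -1.13 ± 0.26, adjusted p 0.283 in edgeR), and its log2 fold change without them was -1.39. Hspa1b is nearly identical to Hspa1a, so reads may be split between them. S100a9 had 4.63 and 14.4 CPM in AT38 libraries, against 588 and 1384 CPM in vehicle libraries, and 32.8 and 100.2 CPM in the vehicle libraries without them. The library shares of neutrophils given above ran in the same direction.

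**Figure D3:**
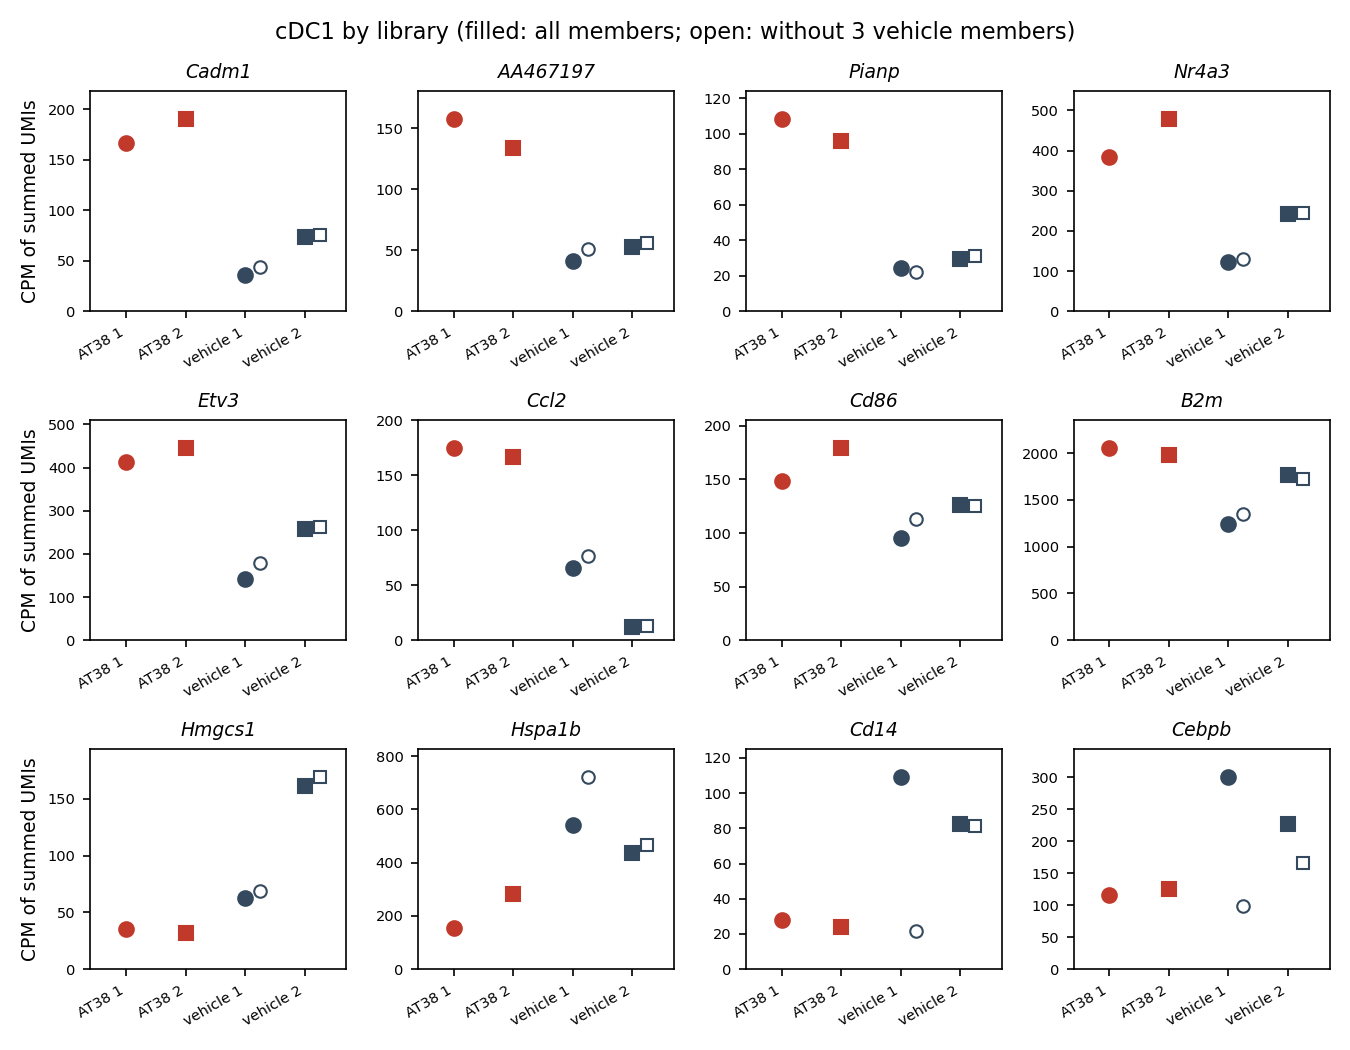
Level of 12 genes in cDC1, in CPM of summed UMIs, for AT38 1, AT38 2, vehicle 1 and vehicle 2; filled points use all members and open points leave out 3 vehicle members. Cadm1, AA467197 and Pianp stay apart in both sets, while the vehicle 1 values of Cd14 and Cebpb are 21.8 and 98.3 CPM without the 3 members.

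Gene lists are described by how many tested members kept the AT38 pair wholly above or wholly below the vehicle pair. Over all genes tested this held for 16.4% (AT38 above) and 19.6% (AT38 below), and for 15.5 and 20.2% without the 3 members, with a median log2 fold change of -0.01 and 0.00. Apart from Retnlg, none of the tested members of the lists passed the adjusted threshold in edgeR with all members, and none passed without the 3.

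Of 24 tested genes of cDC1 identity, 7 were above and 3 below, and 4 were above and 6 below without the 3 members (median log2 0.17 and 0.07). Naaa had 1836 and 1665 CPM in AT38 libraries, against 1616 and 1751 CPM in vehicle libraries, and Wdfy4 had 854 and 942 CPM in AT38 libraries, against 812 and 940.00 CPM in vehicle libraries. The groups overlapped in both; without the 3 members Wdfy4 had 958 and 949 CPM in the vehicle libraries, above AT38, at a log2 fold change of -0.04. Zbtb46, a transcription factor of conventional dendritic cells, had 61.8 and 43.2 CPM in AT38 libraries, against 8.17 and 23.5 CPM in vehicle libraries (log2 1.77 ± 0.48, adjusted p 0.365 in edgeR), with both AT38 libraries higher. Cd36, a scavenger receptor that binds dying cells and lipids, had 127 and 163 CPM in AT38 libraries, against 65.4 and 106 CPM in vehicle libraries, again with the groups apart (log2 0.80 ± 0.26). On the lower side, Gcsam had 91.1 and 89.5 CPM in AT38 libraries, against 133 and 123 CPM in vehicle libraries. Batf3, the partner of IRF8 in cDC1, had 196 and 177 CPM in AT38 libraries, against 218 and 249.7 CPM in vehicle libraries (log2 -0.29 ± 0.20). Of the gate genes, given as a description, Xcr1 had 429 and 660.4 CPM in AT38 libraries, against 281 and 376 CPM in vehicle libraries. Clec9a had 247 and 261 CPM in AT38 libraries, against 166 and 211 CPM in vehicle libraries, and Irf8 had 1579.5 and 1565 CPM in AT38 libraries, against 1368 and 1733 CPM in vehicle libraries.

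Antigen presentation genes lay on both sides. Of 22 tested genes of cross-presentation and peptide loading, 7 were above and 5 below (5 and 8 without the 3 members), and the median log2 was 0.02. B2m, the light chain of MHC class I, had 2052 and 1979.6 CPM in AT38 libraries, against 1239.6 and 1765 CPM in vehicle libraries (log2 0.46 ± 0.18, adjusted p 0.746 in edgeR), and Psmb9, a subunit of the immunoproteasome, had 686 and 697 CPM in AT38 libraries, against 564 and 488 CPM in vehicle libraries. Both AT38 libraries were higher in each, whereas Calr, a chaperone of peptide loading, had 684 and 787 CPM in AT38 libraries, against 1013 and 993 CPM in vehicle libraries and lay lower in both. Tap1, a subunit of the peptide transporter, had 386 and 336 CPM in AT38 libraries, against 267 and 320.2 CPM in vehicle libraries. All 11 tested MHC class II genes other than the gate gene had a log2 fold change above 0, between 0.11 and 0.45, and 6 had both AT38 libraries above, although H2-Oa was at -0.055 without AT38 2. Without the 3 members 2 of 11 did, and the summed class II level was 29862 and 31742 CPM in AT38 libraries, against 31211 and 29413 CPM in vehicle libraries, with overlap; with all members vehicle 1 had 26984 CPM. Cd74, the invariant chain, had 13878 and 14452 CPM in AT38 libraries, against 12799 and 14024 CPM in vehicle libraries.

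More genes of maturation lay above than below in AT38 cDC1, none passing the test. Of 13 tested members, 8 were above and 1 below with all members and 6 and 0 without the 3, with a median log2 of 0.47 and 0.30. Markers of mature dendritic cells, other than Fscn1 and Ccr7, summed to 644 and 593 CPM in AT38 libraries, against 518 and 388 CPM in vehicle libraries (379 and 391 CPM without the 3), and their part in these counts was not tested. Cd86, a ligand of CD28 on T cells, had 148 and 179 CPM in AT38 libraries, against 95.4 and 126 CPM in vehicle libraries, with both AT38 libraries higher (log2 0.60 ± 0.23, adjusted p 0.739 in edgeR). Cd83, which stabilises class II and CD86 at the surface, had 652 and 740.3 CPM in AT38 libraries, against 449.5 and 576 CPM in vehicle libraries, also apart (log2 0.47 ± 0.18). Birc2, a ubiquitin ligase in TNF receptor signalling, had 71.0 and 48.0 CPM in AT38 libraries, against 29.97 and 20.6 CPM in vehicle libraries. Cd40 had 18.5 and 22.4 CPM in AT38 libraries, against 10.9 and 14.7 CPM in vehicle libraries, too few UMIs for the test. The checkpoint ligand gene Cd274 (PD-L1) had 108 and 83.1 CPM in AT38 libraries, against 29.97 and 135 CPM in vehicle libraries, with vehicle 2 the highest library, and Havcr2 (TIM-3) had 184 and 189 CPM in AT38 libraries, against 112 and 229 CPM in vehicle libraries, with overlap as well.

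Cytokine transcripts were sparse. Il12b, a subunit of interleukin 12, had 52.5 and 4.80 CPM in AT38 libraries and 0 UMIs in both vehicle libraries, where a count of 0 allows up to 8.17 and 8.81 CPM; its 37 UMIs lay in 7 members. Ifnb1, Nos2 and Ido1 had no UMI in any member. Among chemokines, 4 of 8 tested were above and none below, and 3 of 8 without the 3 members (median log2 0.63 and 0.55). Ccl2 (chr11:82035571-82037453), which draws CCR2-bearing monocytes, had 174 and 166 CPM in AT38 libraries, against 65.4 and 11.7 CPM in vehicle libraries over 48 positive members (log2 2.13 ± 0.46, adjusted p 0.290 in edgeR). Ccl17, which draws CCR4-bearing T cells, had 29.3 and 198 CPM in AT38 libraries, against 2.72 and 17.6 CPM in vehicle libraries, and 92% of its UMIs lay in 5 cells. Ccl17 is also on the list of cDC2 markers, which summed to 1743 and 2012 CPM in AT38 libraries, against 1509 and 1695 CPM in vehicle libraries (1788 and 1685 CPM without the 3 members). Of the 7 tested cDC2 markers, Mgl2, Ccl17 and Ms4a6c were above and none below, with a median log2 of 0.67, and without the 3 members 3 were above and 2 below (0.44). Mgl2, a lectin of cDC2, had 26.2 and 129.5 CPM in AT38 libraries, against 2.72 and 11.7 CPM in vehicle libraries. Clec4a4, another cDC2 lectin, was at 0 in every library, and the part of these markers in the level of Ccl17 was not tested. Cxcl16, the ligand of CXCR6 on T cells, had 151 and 199.9 CPM in AT38 libraries, against 109 and 135 CPM in vehicle libraries, with the groups apart. Cxcl9, the ligand of CXCR3, varied widely within each group, with 445 and 173 CPM in AT38 libraries, against 27.2 and 367 CPM in vehicle libraries over 28 positive members, and the libraries overlapped. Cxcr3 had 44.8 and 48.0 CPM in AT38 libraries, against 24.5 and 20.6 CPM in vehicle libraries, and both AT38 libraries were higher.

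Interferon and NF-kB genes had more members above than below. Of 12 tested type I interferon response genes, 7 were above and 0 below with all members, and 5 of 11 and 0 without the 3 (median log2 0.52 and 0.34). Of 10 tested interferon gamma response genes, 4 were above and 0 below in both sets (median log2 0.70 and 0.62), and Irgm1, an interferon-induced GTPase, had 23.2 and 65.6 CPM in AT38 libraries, against 19.1 and 17.6 CPM in vehicle libraries, where AT38 2 stood well above the other libraries. Of 17 NF-kB targets, 9 were above and 1 below, and 7 and 2 without the 3 members (median log2 0.39 in both sets). Gadd45b, a stress-response gene, had 134 and 159.9 CPM in AT38 libraries, against 79.0 and 88.1 CPM in vehicle libraries (log2 0.84 ± 0.23, adjusted p 0.382 in edgeR), and Tnfaip3, the deubiquitinase A20 that restrains NF-kB, had 289 and 321 CPM in AT38 libraries, against 158 and 247 CPM in vehicle libraries. Of 28 immediate early and stress genes, 6 were above and 5 below, and 6 and 6 without the 3 members. Egr2, Egr3, Ier3 and Nr4a3 were among those above and heat shock genes (Hspa1a, Hspa1b, Hsp90aa1, Hspa8) among those below. Choosing members on counts thinned to 2000 UMIs left 20 and 23 of them in AT38 libraries, against 8 and 10 in vehicle libraries. Their unthinned UMIs were then summed, and several genes given as higher or lower with AT38 had the other sign. The log2 fold changes were then -1.14 for Gadd45b, -0.91 for Tnfaip3, -0.13 for Cd36, -0.058 for Psmb9, -0.10 for Tap1, -0.13 for Cxcl16, -1.18 for Mgl2 and -0.41 for Nfkbia. They were 0.33 for Hspa1b, 0.18 for Plac8 and 0.59 for Gcsam. None of these passed the test of AT38 in cDC1 in either fit.

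More cholesterol and lipid genes lay below than above with AT38. Of 17 tested cholesterol and lipid genes, 2 were above and 8 below with all members, and 1 and 9 without the 3, with a median log2 of -0.42 and -0.31. Hmgcs1 (chr13:119690379-119708260), which makes the precursor of mevalonate, had 35.5 and 32.0 CPM in AT38 libraries, against 62.7 and 162 CPM in vehicle libraries (log2 -1.68 ± 0.41, adjusted p 0.301 in edgeR). Vehicle 2 was the highest library and both AT38 libraries the lowest. Insig1, which holds back the sterol-sensing factors, had 47.9 and 56.0 CPM in AT38 libraries, against 79.0 and 96.9 CPM in vehicle libraries. Of 13 tested oxidative stress and NRF2 targets, 0 were above and 5 below, and 1 and 5 without the 3 members (median log2 -0.24 and -0.14). Slc7a11, the cystine transporter, had 24.7 and 33.6 CPM in AT38 libraries, against 46.3 and 85.2 CPM in vehicle libraries, but 10.9 and 75.2 CPM in the vehicle libraries without the 3 members, which overlapped with AT38. Of 19 hypoxia and glycolysis genes, 1 was above and 5 below (1 and 2 without the 3), and of 12 mitochondrially encoded genes 7 were below with all members and 0 without them. Arg1 had 12.4 and 16.0 CPM in AT38 libraries, against 2.72 and 0 CPM in vehicle libraries, too few UMIs for the test. The count of 0 in vehicle 2 allows up to 8.81 CPM. Gch1, which makes the cofactor of nitric oxide synthases, had 20.1 and 43.2 CPM in AT38 libraries, against 46.3 and 58.7 CPM in vehicle libraries.

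**Figure D4:**
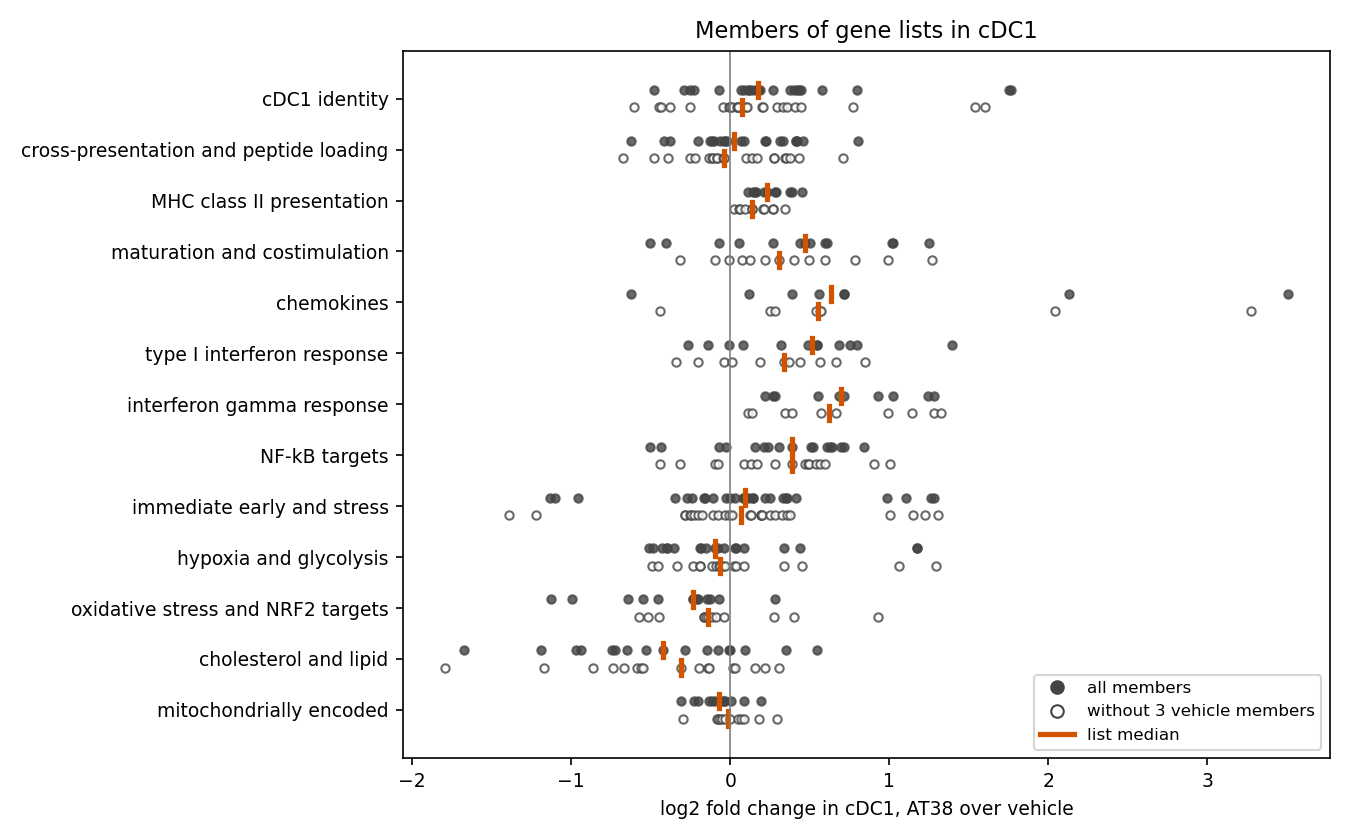
Log2 fold change in cDC1, AT38 over vehicle, of each tested member of 13 gene lists; filled points use all 128 members, open points leave out 3 vehicle members and bars mark list medians. The medians of maturation, chemokine, interferon and NF-kB genes lie above 0 and that of cholesterol and lipid genes below 0 in both sets, while the class II median is 0.23 with all members and 0.14 without the 3.

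Whether cDC1 and cDC2 of the same libraries responded alike was tested gene by gene, as an interaction with a term for each library (edgeR quasi-likelihood test with Benjamini-Hochberg adjustment). The AT38 response differed for 15 of 6918 genes, or 0.217%: it was higher in cDC1 for 11 (0.159%) and lower for 4 (0.0578%). With cells past the cut-offs left out of both types, 13 genes were called, 12 of them among these 15. This removed the 3 cDC1 and took the vehicle cDC2 from 66 and 95 cells to 64 and 89. With the cut-off on S100a8 and S100a9 alone 8 genes were called. With a gate of at least 4 UMIs of Xcr1 and Clec9a 2 genes were called, AA467197 and S100a9. With both types chosen on thinned counts 43 were, with 2 of the 15 among them, Etv3 and S100a9. The cDC2 so chosen numbered 128 and 112 in AT38 libraries, against 98 and 136 in vehicle libraries, where the main gate gave 72 and 47, against 66 and 95. The count was 28 without AT38 1 and 4 without vehicle 1, and 21 and 17 without AT38 2 and vehicle 2. Over 280 cDC2, AT38 against vehicle gave 12 calls of 6674 genes (0.18%), 2 higher (0.03%) and 10 lower (0.15%), and 29, 52, 157 and 44 calls without AT38 1, AT38 2, vehicle 1 and vehicle 2. The cDC1 call, Retnlg, was not among the 12.

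AA467197 had the smallest p. In cDC1 it was higher with AT38, as given above, whereas in cDC2 it had 452 and 376 CPM in AT38 libraries, against 663 and 1026 CPM in vehicle libraries, so the order of the groups was opposite in the 2 cell types (difference of log2 fold changes 2.67 ± 0.28, adjusted p 1.73e-07 in edgeR). Tbc1d4, a regulator of Rab GTPases in vesicle traffic, had 144 and 182 CPM in AT38 libraries, against 70.8 and 88.1 CPM in vehicle libraries for cDC1, and 137 and 115 CPM in AT38 libraries, against 186 and 283 CPM in vehicle libraries for cDC2. Again the groups crossed over (difference 1.91 ± 0.32, adjusted p 0.00127 in edgeR). With both types chosen on thinned counts the difference for Tbc1d4 was 0.41, with an adjusted p of 0.829 in edgeR. Tbc1d4 and Serpinb6b, also called, are on the list of markers of mature dendritic cells. The part of mature cell RNA in their cDC1 levels was not tested. Pik3r1, a regulatory subunit of PI3 kinase, had 169.8 and 173 CPM in AT38 libraries, against 128 and 88.1 CPM in vehicle libraries for cDC1, and 178 and 213 CPM in AT38 libraries, against 352 and 316 CPM in vehicle libraries for cDC2 (difference 1.47 ± 0.28).

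An NF-kB inhibitor and early-response genes were also called with all members. Nfkbia, the inhibitor of NF-kB, had 628 and 499 CPM in AT38 libraries, against 267 and 476 CPM in vehicle libraries for cDC1, and 750.2 and 745 CPM in AT38 libraries, against 926 and 1336 CPM in vehicle libraries for cDC2 (difference 1.24 ± 0.20, adjusted p 0.000977 in edgeR). With both types chosen on thinned counts the difference for Nfkbia was -0.18. Egr2, Skil and Tagap were also higher with AT38 in cDC1 and lower in the fitted fold change of cDC2, with differences of 2.09 ± 0.46, 1.10 ± 0.23 and 1.87 ± 0.41. Etv3 differed through cDC1, since cDC2 had 457 and 483 CPM in AT38 libraries, against 458 and 555 CPM in vehicle libraries, with overlap (difference 1.26 ± 0.23). Irf4 had 9.26 and 32.0 CPM in AT38 libraries, against 0 and 0 CPM in vehicle libraries for cDC1, and 92.9 and 175 CPM in AT38 libraries, against 159 and 205 CPM in vehicle libraries for cDC2. All 26 of its cDC1 UMIs lay in 7 AT38 cells, 15 of them in 1 cell of AT38 2, and a fitted fold against libraries at 0 is no bound. That cell had 28294 UMIs in all, 3 of Xcr1, 0 of Clec9a, 1 of Naaa and 2 of Ccr7, and it also held the most UMIs of Etv3 (45 of 685) and Pik3r1 (18 of 295). With the gate of at least 4 UMIs, which leaves it out, the difference for Irf4 had an adjusted p of 0.925 in edgeR. Plac8, a small cysteine-rich protein, ran the other way, with 576 and 539 CPM in AT38 libraries, against 763 and 825 CPM in vehicle libraries for cDC1, and 1048 and 1033 CPM in AT38 libraries, against 713 and 772 CPM in vehicle libraries for cDC2 (difference -0.98 ± 0.19, adjusted p 0.00517 in edgeR).

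**Figure D5:**
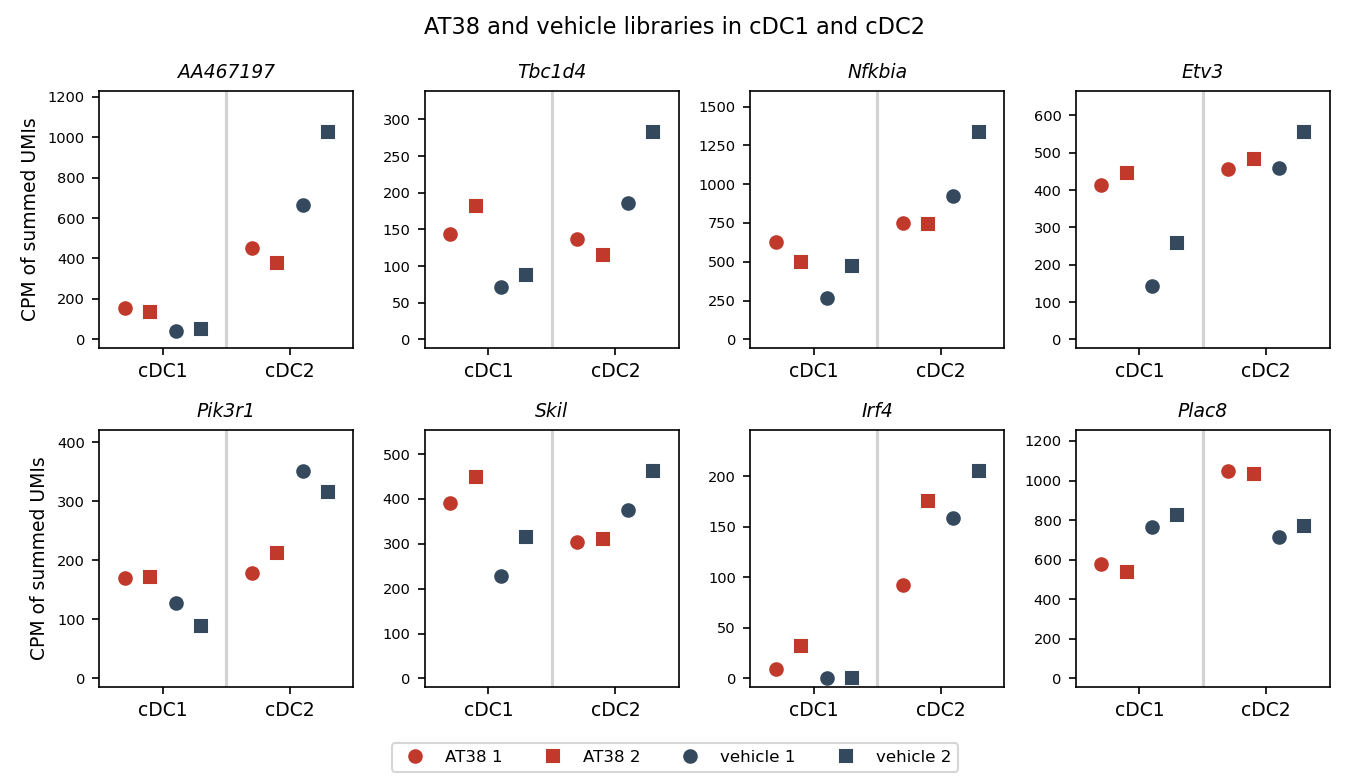
Level of 8 genes, in CPM of summed UMIs, in cDC1 (left of each panel) and cDC2 (right), with 1 point per library, AT38 before vehicle. For AA467197, Tbc1d4, Pik3r1 and Skil the AT38 points lie above the vehicle points in cDC1 and below them in cDC2, and for Plac8 the order is reversed.

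Against mature dendritic cells the response differed for 1 of 7113 genes (0.0141%), Cxcl5, a chemokine for neutrophils whose 115 cDC1 UMIs all lay in the deep vehicle 1 cell. No gene was called with cells past the cut-offs left out of both types (0 of 6935, with 308 at an unadjusted p under 0.05 in edgeR). Mature cells then numbered 44 and 84 in AT38 libraries, against 34 and 60 in vehicle libraries. With all cells they numbered 46 and 86, against 35 and 64. In mature cells themselves 1 of 6249 genes (0.016%) passed, Hspa1b, with 67.8 and 55.4 CPM in AT38 libraries, against 274 and 325 CPM in vehicle libraries, the same order as in cDC1.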

How the data were processed

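Leukocytes enriched for CD45 by sorting were run on the Chromium 3′ v3.1 platform, with 10000 cells loaded and 4000 targeted per library, and sequenced on a NextSeq500, per the labels' protocols. The authors deposited UMI counts per gene and barcode for 31053 genes; Cell Ranger 3.1.0 and mm10 are named in the submitters' processing notes, and the annotation release is not given in the sources used here. Of 18001 barcodes, barcodes were retained from 200 detected genes and 500 UMIs upward if mitochondrial transcripts made up no more than 10%. Gates used UMI thresholds only. The cDC2 gate asked for at least 2 UMIs of Cd209a, Clec10a and Mgl2 together, at least 3 of H2-Ab1 and 0 of Xcr1 and Clec9a. It also allowed at most 1 of Ly6c2, Fcgr1 and Adgre1 together, a cap that the cDC1 gate lacked. The mature gate asked for at least 5 of Fscn1 and Ccr7 together and at least 3 of H2-Ab1. No doublet caller was run: the cDC1 gate excludes T cell, B cell and macrophage genes, and an alternative removes the top 3% of UMIs. The members and gene lists were chosen with earlier results of these data known.

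UMIs were summed per library and gate and tested in edgeR 4.0.16 (R 4.3.3; TMM, filterByExpr, quasi-likelihood test, Benjamini-Hochberg adjustment), with DESeq2 1.42.0 as an alternative. The interaction fits held terms for library and cell type. Shares were compared by an exact permutation test over libraries and given exact binomial intervals (Python 3.11.15, SciPy 1.17.1, pandas 2.3.3), which cover counting error only. The smallest p that 2 against 2 libraries allow is 0.333. Named genes were, per direction, the 10 with the smallest p where fewer passed the adjusted threshold (mean of at least 10 CPM), up to 4 per list by p, a fixed set of cDC1 genes and up to 5 called interactions per direction; others named were chosen after their values were seen. The test was also run on counts simulated from the cDC1 sums with planted changes, and the outcome is not reported here. Gene positions are from GENCODE M21 (GRCm38), matched by Ensembl ID, and promoters from RefSeq (GRCm38.p6). The alternatives were other gates and barcode filters, thinning to 2000 UMIs, other normalizations and filters, each library left out and a replicate block. In the thinning alternative, thinned counts served only to choose the cells of each gate, and the sums tested held all their UMIs. Results on some single genes are not reported here.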

Additional observations from a re-analysis of the deposited data

Results flagged for a closer look

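Of the results, 16 were picked out because the response to AT38 differed between cDC1 and another dendritic cell type of the same libraries in the interaction test (edgeR quasi-likelihood, Benjamini-Hochberg adjusted p under 0.05). Against cDC2 the difference of log2 fold changes, cDC1 minus cDC2, was above 0 for 11 genes. It was 2.67 for AA467197, 1.24 for Nfkbia, 1.91 for Tbc1d4, 1.26 for Etv3 and 7.08 for Irf4, the last with 0 UMIs in both vehicle cDC1 sums, so that its fitted size is no bound. It was 1.47 for Pik3r1, 1.86 for S100a4, 1.10 for Skil, 1.87 for Tagap, 2.09 for Egr2 and 1.89 for Serpinb6b. It was below 0 for 4 genes, at -2.76 for S100a9, -2.31 for S100a8, -9.53 for Tff2 and -0.98 for Plac8. S100a9 and S100a8 are neutrophil genes, with 439 and 361 cDC1 UMIs in 1 vehicle 2 cell, and 114 of the 117 cDC1 UMIs of Tff2 lay in 1 vehicle 1 cell. With cells past the cut-offs left out of both types, the 3 vehicle members that stood apart among them, S100a8, Tff2 and Serpinb6b were no longer called. With both types chosen on counts thinned to 2000 UMIs, the difference against cDC2 turned to -0.18 for Nfkbia, -0.54 for Irf4, -2.46 for S100a4 and -1.73 for Serpinb6b. The other genes fitted there kept their sign. Against mature dendritic cells the difference was -16.0 for Cxcl5, all of whose cDC1 UMIs lay in 1 vehicle 1 cell.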

How the results depend on the processing

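The direction of the cDC1 share held in every alternative run. Leaving out 1 library could not have reversed it, because the groups did not overlap. With those runs included, the log2 ratio of AT38 over vehicle was 0.81 to 1.41 among kept barcodes and 0.54 to 1.06 among dendritic cells. Over the other alternatives, which reuse the same 4 libraries, it was 0.92 to 1.38 and 0.60 to 1.06. The cycling share and the ratio of mature cells to cDC1 stayed below 0, at -0.90 to -0.14 and -1.04 to -0.00236. Counts of called genes moved more. In cDC1, against 1 call, there were 3 with at least 4 UMIs of Xcr1 and Clec9a, 7 with at least 1, 6 with no C1q UMI, 11 without the top 3% of UMIs, 39 after thinning to 2000 UMIs before the gate, 4 with the same number of members per library, 4 with DESeq2, 111 with no filter and 4 with a minimum count of 30. Leaving out each library gave 23 to 241 in cDC1, 29 to 157 in cDC2, 5 to 63 in mature cells, 4 to 28 for cDC1 against cDC2 and 3 to 46 for cDC1 against mature cells. Without the neutrophil-rich cells of each type, and without those and the deep ones, both chosen after seeing the data, there were 0 and 0 in cDC1, 6 and 6 in cDC2 (12 with all), 2 and 3 in mature cells (1), 8 and 13 for cDC1 against cDC2 (15) and 1 and 0 for cDC1 against mature cells (1). cDC1 against cDC2 gave 2 with at least 4 UMIs and 43 after thinning, and cDC1 against mature cells 0 with a minimum count of 30 and 7 after thinning. Of 2899 alternative values of 137 tested genes chosen by the naming rule, 84 in 57 genes had the other sign, and 2 of these passed the threshold, Dnase1l3 and Serpinb6b after thinning; the causes were not tested. With members chosen on thinned counts and their unthinned UMIs summed, the log2 fold changes were -0.86 for Ass1, 0.84 for Bst2, -0.52 for Ccl3, -0.90 for Cd274, -0.13 for Cd36, -0.13 for Cxcl16, -0.90 for Cxcl9, -1.86 for Dnase1l3, 0.93 for Flt3, -1.14 for Gadd45b, -1.41 for Gbp2, 0.59 for Gcsam and -0.10 for H2-K1. For the same members they were 0.33 for Hspa1b, -0.042 for Isg15, -0.064 for Itgae, 0.49 for Kit, -0.16 for Lyz2, -1.18 for Mgl2, -0.38 for Ms4a6c, -0.040 for Naaa, -0.060 for Ndrg1, -0.41 for Nfkbia, -0.87 for Odc1, 0.18 for Plac8 and -0.32 for Plpp1. They were also -0.058 for Psmb9, -1.46 for Serpinb6b, 0.051 for Snx22, 0.53 for Spp1, -0.10 for Tap1, -0.069 for Tgfb1, -1.01 for Tnf, -0.91 for Tnfaip3, 0.63 for Tsc22d3 and -0.66 for Txn1. Without the top 3% of UMIs they were -0.026 for Btla, -0.24 for Cd274, -0.19 for Cxcl9, -0.076 for Irf8, -0.030 for Naaa, -0.40 for Tnip3 and 0.043 for mt-Nd3. With the same number of members they were -0.13 for Id2, -0.037 for Ifi205, -0.18 for Nfil3, -0.013 for Rab7b and -0.15 for Tlr11. With no C1q UMI they were 0.13 for Hmgb2, -0.065 for Ighm and -0.11 for Irf8. With at least 1 UMI of Xcr1 and Clec9a they were 0.024 for Ccr9, -0.42 for Gbp2 and -0.26 for Tnip3. With at least 4 the value was -0.29 for Tnip3. With no cap on Fscn1 and Ccr7 they were -0.00041 for Btla and -0.091 for Cxcl9. Without the neutrophil-rich members the value was -0.0016 for Cd8b1. Without the 3 members they were -0.0082 for Btla, -0.0039 for Id2, -0.049 for Irf8 and -0.043 for Wdfy4. Leaving out 1 library at a time gave log2 fold changes of -0.60 to 0.18 for Bst2, -0.068 to 0.33 for Btla, -2.23 to 2.78 for Ccr9, -0.45 to 1.70 for Cd274, -0.94 (tested once) for Cd8b1, -0.20 to 3.53 for Cxcl9, -1.53 to 0.017 for Gsto1, -0.055 to 0.85 for H2-Oa, -0.25 to 0.76 for Havcr2 and -0.15 to 0.35 for Id2. It also gave -0.28 to 0.83 for Ighm, -0.095 to 0.23 for Irf8, -0.51 to 0.033 for Kit, -0.34 to 2.05 for Ly75, -0.53 to 0.22 for Per1, -0.27 to 2.68 for Plpp1, -2.35 to 0.23 for Runx2, -0.96 to 1.36 for Tnf, -0.082 to 2.39 for Txnip and -0.021 to 0.17 for Wdfy4. Retnlg lost its call with no cap on Fscn1 and Ccr7, without the top 3% of UMIs and after thinning.

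The labels do not say whether a replicate number marks a shared batch, and no pairing was assumed. Deviations of AT38 1 and vehicle 1 from their group means correlated at 0.1 over 5406 genes, which cannot decide this with 2 libraries a group. With a replicate block there were 74 calls in cDC1, 5 in cDC2 and 0 in mature cells. Depth limits the cDC1 sums of 21 to 44 cells to floors of 4.63 to 8.81 CPM for a gene at 0.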
